A study of Mus musculus with 2 samples.

Results

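Nerve fibres run through brown fat, and 7 genes that mark them and their glia were followed here in interscapular brown adipose tissue (iBAT), a depot that burns fuel for warmth. The genes were chosen by name, as myelin, Schwann cell and sympathetic nerve transcripts, and all 7 were found among the 27179 genes of the count tables. They were Mbp, Pmp22, Sox10, S100b, Ngfr, Th and Dbh. The tissue came from untreated C57BL/6N mice of 20 days, described as male, that were either wild-type or carried a Ucp1 knockout (Ucp1-KO) whose allele the labels do not detail. Each genotype had 1 library, made from the iBAT of 3 pooled animals. There are thus no replicates and no p-values, and a difference below is one between 2 libraries, set against counting error alone.

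Brown adipocytes are switched on by sympathetic nerves, which release noradrenaline onto beta-adrenergic receptors. The neurons that send these fibres have their cell bodies in ganglia outside the depot, so that most of their messenger RNA lies outside the tissue too, whereas the Schwann cells that wrap the axons live within it and carry their transcripts there. Among the members, Mbp and Pmp22 encode myelin proteins, Sox10 is the transcription factor that defines the Schwann lineage, S100b encodes a calcium-binding protein of glia, and Ngfr is the low-affinity neurotrophin receptor (p75). Th and Dbh encode tyrosine hydroxylase and dopamine beta-hydroxylase, the enzymes for the first and the last step of noradrenaline synthesis. Several are not private to nerve. Pmp22 is also made by fibroblasts and endothelial cells, S100b by adipocytes, and the Mbp gene contains a longer transcription unit, golli, that is active in immune cells. Gene-level counts do not separate these sources.

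Wild-type reads summed to 52950913 counts and those of Ucp1-KO to 53216727, and the 7 genes took 0.0245% and 0.0140% of them. Ucp1 itself stood at 12.7% of its wild-type level in the Ucp1-KO library (95% counting interval 12.5% to 12.9%), lower but not absent. The libraries went against their description in another respect. Uty, Ddx3y, Eif2s3y and Kdm5d, all Y-linked, summed to 0 counts in wild-type against 5305 in Ucp1-KO, and Xist had 32380 and 16478 counts. Skeletal muscle markers took 0.665% of all wild-type counts against 0.0807% in Ucp1-KO. With 1 library per genotype, genotype, sex-linked transcripts and muscle content cannot be told apart, and no value below can be given without either library.

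The promoters shown here are those of S100b and Pmp22, the best counted members that differed, and of Th and Dbh, the pair of the sympathetic pathway. RefSeq sequences matched 5 of the 7 members by symbol, and Mbp and Sox10 had none. Each run holds the 250 bases before a transcription start of build GRCm38.p6 on the gene's own strand, 5′ to 3′. Capitals mark TGACG, the core of the cyclic AMP response element (CRE), or its reverse complement. Pmp22 has alternative promoters and 4 RefSeq starts, of which the most upstream is shown.
S100b, chr10:76253586-76253835, plus strand: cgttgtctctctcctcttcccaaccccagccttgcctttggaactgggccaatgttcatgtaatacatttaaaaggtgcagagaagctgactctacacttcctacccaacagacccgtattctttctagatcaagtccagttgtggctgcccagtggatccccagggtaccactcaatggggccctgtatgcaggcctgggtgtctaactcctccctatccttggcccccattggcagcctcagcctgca
Pmp22, chr11:63128732-63128981, plus strand: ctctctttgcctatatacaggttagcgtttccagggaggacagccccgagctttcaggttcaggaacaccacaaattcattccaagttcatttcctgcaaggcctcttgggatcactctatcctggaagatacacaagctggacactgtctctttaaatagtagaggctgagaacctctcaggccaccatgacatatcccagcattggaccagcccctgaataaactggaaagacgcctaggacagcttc
Th, chr7:142899996-142900245, minus strand: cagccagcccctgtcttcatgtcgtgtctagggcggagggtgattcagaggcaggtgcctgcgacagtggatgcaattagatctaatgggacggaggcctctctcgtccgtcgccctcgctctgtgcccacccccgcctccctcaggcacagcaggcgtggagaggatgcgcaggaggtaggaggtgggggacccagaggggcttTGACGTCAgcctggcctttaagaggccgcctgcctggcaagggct
Dbh, chr2:27165257-27165506, plus strand: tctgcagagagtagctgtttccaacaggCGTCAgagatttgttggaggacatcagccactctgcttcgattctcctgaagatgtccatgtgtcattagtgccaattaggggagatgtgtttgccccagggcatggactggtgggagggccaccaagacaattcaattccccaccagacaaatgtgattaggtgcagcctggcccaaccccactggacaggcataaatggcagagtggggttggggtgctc

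Each start was searched on both strands from 250 bases before it to 50 bases after it. The Th promoter held this core on both strands in overlapping form, from 45 to 38 bases before the start, which gives a full palindromic CRE. The Dbh promoter held it once, from 222 to 218 bases before the start, and the S100b, Pmp22 and Ngfr windows held none. Over all 32851 RefSeq promoters of 300 bases, 20.8% had TGACG. The SOX core ACAAAG, found in 18.7% of them, was in none of the 8 member windows searched, which do not include Mbp or Sox10. An E-box, CANNTG, was in 72.3% of all promoters and in those of S100b, Ngfr, Th, Dbh and 1 of the 4 Pmp22 starts. These matches describe the letters only.

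The myelin genes came first. Mbp (Entrez gene 17196, chromosome 18, 82493207 to 82603763 of GRCm39, plus strand) encodes myelin basic protein, which compacts the myelin sheath. It had 1611 counts in wild-type (95% Poisson interval 1502 to 1726) against 1409 in Ucp1-KO (1307 to 1517). After scaling by median-of-ratios size factors these were normalised counts of 1452 and 1563, and the log2 ratio of Ucp1-KO over wild-type was 0.11 with a counting interval of -0.04 to 0.25. On this scale Mbp did not differ beyond counting error. Both the sign and that reading depended on scaling, since total counts gave -0.20 with an interval of -0.35 to -0.05, wholly below 0, while moving the median of all genes by about as much, from -0.0016 to -0.31. Intervals were computed on read pairs, taken as counts divided by 2, because low counts were mostly even, 70.7% of counts from 1 to 10 in wild-type and 73.4% in Ucp1-KO. Counts from 100 to 1000 showed no such excess, with 49.9% even in wild-type and 50.2% in Ucp1-KO. On counts as deposited the Mbp interval was 0.0022 to 0.21, which leaves out 0.

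Pmp22 (Entrez gene 18858, chromosome 11, 63019718 to 63050600, plus strand), a membrane protein of compact peripheral myelin, had 4607 counts in wild-type (4421 to 4799) against 2491 in Ucp1-KO (2355 to 2633). Its normalised count in Ucp1-KO was 66.6% of that in wild-type (62.1% to 71.3%), a log2 ratio of -0.59 (-0.69 to -0.49). The gene was thus lower beyond counting error but short of a 2-fold difference. In bulk tissue, fewer cells of a type and less RNA per cell give the same lower count and cannot be told apart. Pmp22 and Mbp also parted from each other within the libraries, in a ratio that no scaling can move. There were 2.86 counts of Pmp22 for each count of Mbp in wild-type against 1.77 in Ucp1-KO, a log2 change of -0.69 (-0.87 to -0.52).

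The lineage factor Sox10 (Entrez gene 20665, chromosome 15, 79039108 to 79049469, minus strand) had 99 counts in wild-type (73.4 to 130.7) against 76 in Ucp1-KO (53.8 to 104). The log2 ratio of -0.08 had an interval of -0.73 to 0.56. No difference was detectable at this depth, and the interval ran from 60.2% to 147% of the wild-type level. S100b (Entrez gene 20203, chromosome 10, 76085090 to 76097159, plus strand) was the most abundant member, at 6583 counts in wild-type (6360 to 6812) against 3439 in Ucp1-KO (3278 to 3605). The Ucp1-KO level was 64.3% of wild-type (60.6% to 68.2%), a log2 ratio of -0.64 (-0.72 to -0.55). The proportion of Pmp22 to S100b did not differ beyond counting error, with 0.700 counts of Pmp22 per count of S100b in wild-type against 0.724 in Ucp1-KO, a log2 change of 0.05 (-0.08 to 0.18). Against Sox10 the change was less certain. S100b had 66.5 counts per count of Sox10 in wild-type against 45.2 in Ucp1-KO, a log2 change of -0.56 whose interval of -1.17 to 0.06 included 0.

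Ngfr (Entrez gene 18053, chromosome 11, 95459638 to 95478561, minus strand), the p75 receptor of immature and non-myelinating Schwann cells and of some mesenchymal cells, had 51 counts in wild-type (33.2 to 75.0) against 18 in Ucp1-KO (8.23 to 34.2). The normalised count in Ucp1-KO was 43.4% of that in wild-type, with a wide interval of 17.9% to 95.9%, and the log2 ratio was -1.18 (-2.48 to -0.06). Ngfr was the single member past 2-fold, among the 5 members that reached a mean of 10 normalised counts. Of all 15212 genes that passed this minimum, 9.55% were at least 2-fold lower. No member was at least 2-fold higher, against 7.42% of all genes. By the softer rule of an interval wholly below a ratio of 1, Pmp22, S100b and Ngfr were lower, 3 of 5, beside 30.5% of all genes. None had an interval wholly above 1, beside 31.5%. The median log2 ratio of the 5 was -0.59 and that of all genes -0.0016.

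**Figure D1:**
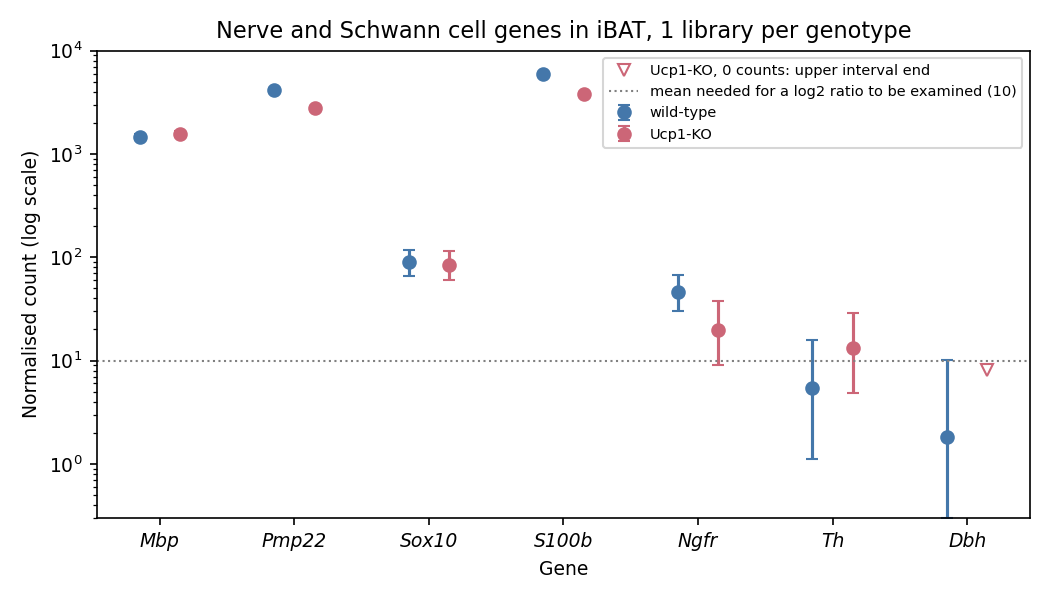
Normalised counts (log scale) of the 7 genes in the wild-type (blue) and Ucp1-KO (red) library, 1 library each; bars are 95% Poisson counting intervals on read pairs, cut at the lower edge of the axis, and the open triangle is the upper interval end of Dbh at 0 counts. Pmp22, S100b and Ngfr sit lower in Ucp1-KO, Mbp and Sox10 overlap, and Th and Dbh lie near the limit of detection.

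The sympathetic enzymes were barely measured. A count of 0 allows up to 3 read pairs, or 6 counts. Th (Entrez gene 21823, chromosome 7, 142443466 to 142484865, minus strand) had 6 counts in wild-type (1.24 to 17.5), at that limit, against 12 in Ucp1-KO (4.40 to 26.1). The log2 ratio of 1.23 had an interval of -0.93 to 3.93, so neither direction can be read from it. Dbh (Entrez gene 13166, chromosome 2, 27055245 to 27074212, plus strand) gave 2 counts in wild-type against 0 in Ucp1-KO, both within the limit, and no ratio is given. Neither gene reached the minimum mean of 10, and all 4 values were even numbers.

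Levels of different genes were compared per kb of exon in the normalised counts. S100b stood at 2971 normalised counts per kb in wild-type against 1911 in Ucp1-KO, Pmp22 at 1012 and 674, and Mbp at 149 and 160. These 3 were each apart from their neighbours in both libraries beyond counting error. Sox10 followed with 26.8 and 25.3, then Ngfr with 13.3 and 5.79, the intervals of this pair nearly touching in wild-type (19.9 to 35.4 for Sox10, 8.66 to 19.6 for Ngfr). Th stood at 0.759 and 1.87 and Dbh at 0.365 and 0 normalised counts per kb. In Ucp1-KO the intervals of Ngfr (2.65 to 11.0) and Th (0.686 to 4.07) overlapped, and those of Th and Dbh overlapped in both libraries. The order of the 7 genes was the same in the 2 libraries. Exon lengths are unions over all annotated transcripts, so genes with long or read-through isoforms, such as Mbp at 9.74 kb and Th at 7.12 kb, are placed lower than by their main transcript.

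**Figure D2:**
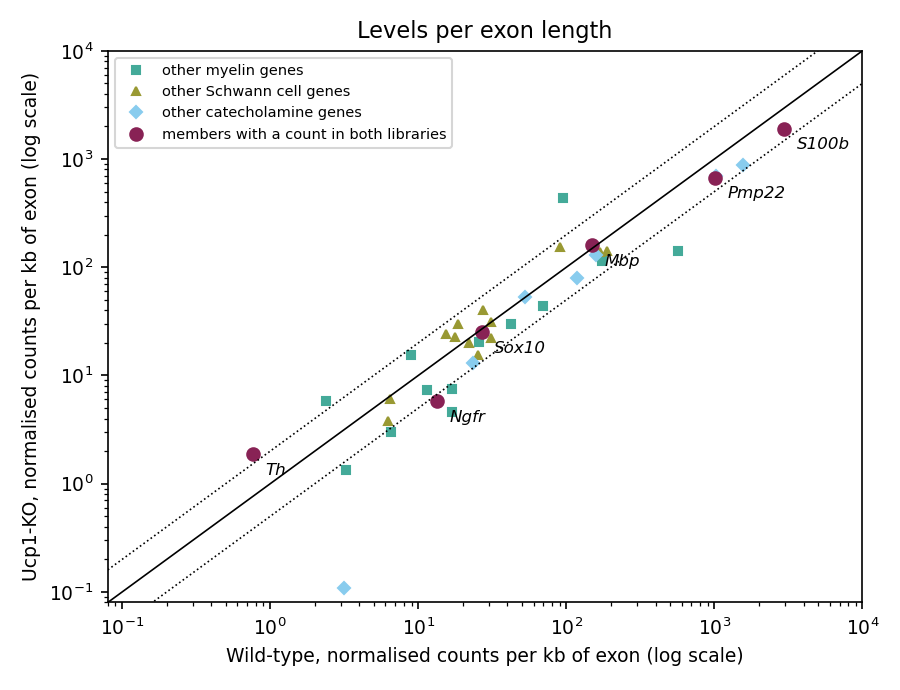
Normalised counts per kb of exon in Ucp1-KO against wild-type (both log scales) for the members with a count in both libraries (circles) and 3 lists of related genes (those examined and with a count in both); the solid line is equality and the dotted lines a 2-fold difference. S100b and Pmp22 lie at the upper right just under equality, Mbp and Sox10 on it, and Ngfr just past the lower 2-fold line. Th, past the upper 2-fold line, rests on 6 counts in wild-type against 12 in Ucp1-KO, too few to read a direction.

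Other myelin genes were mostly lower than Mbp in their ratio. Of 16 listed, 14 reached that minimum, with a median log2 ratio of -0.65. Of these, 6 were at least 2-fold lower and 2 at least 2-fold higher, beside 9.55% and 7.42% of all genes examined. Of the lower ones 3, Mag, Ugt8a and Pmp2, passed the minimum through the wild-type library alone, which fixed their direction but not a 2-fold size. The other lower ones passed it in both libraries, each with an interval below 0. Ugt8a, an enzyme of myelin galactolipid synthesis, had 36 counts in wild-type against 0 in Ucp1-KO. With the 0 set to the limit of 6 counts it was 4.87-fold lower. That value leaves out the counting error of wild-type, and the counting interval reached 28.0% of the wild-type level. Mal, a proteolipid of myelin that other cells also make, went the other way with 299 and 1113 counts, a log2 ratio of 2.19 (1.93 to 2.47). Cnp (-0.60) and Prx (-0.65), named after their values were seen, lay near Pmp22, each with an interval below 0.

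Schwann cell genes outside myelin lay near Sox10 in their median ratio. Of 17 listed, 13 were examined, and the median log2 ratio was -0.07. None was 2-fold different, beside 9.55% of all genes lower and 7.42% higher. With total counts the median was -0.38, near the shift of all genes, and without the minimum on low counts it was -0.29. The genes left out had fewer counts in Ucp1-KO, none beyond counting error: Sox2 (8 and 0), Gfap (4 and 0), Cmtm5 (14 and 4) and Pou3f1 (8 and 4). They were named after their values were seen. Cadm4, an adhesion molecule on the Schwann cell side of the axon contact, was higher, with 233 counts in wild-type against 325 in Ucp1-KO and a log2 ratio of 0.78 (0.43 to 1.14). Scn7a and Kcna1, ion channel genes, were the most abundant of the list and lower, Scn7a with 1563 and 956 counts (-0.41, -0.58 to -0.24) and Kcna1 with 893 and 593 (-0.29, -0.51 to -0.08). Fabp7, a lipid-binding protein of immature glia, had 36 and 18 counts, and Foxd3, a neural crest transcription factor, 16 and 8, neither beyond counting error. Erbb3, the neuregulin receptor of Schwann cells, with 124 and 130 counts and a log2 ratio of 0.37 (-0.16 to 0.89), and the cadherin Cdh19, with 166 and 200 counts and 0.57 (0.13 to 1.01), were named after their values were seen. Central glia markers were looked at as a check of the label: Mog had 10 and 0 counts, Mobp, Opalin, Ermn, Hapln2 and Olig2 were listed at 0 in both libraries, Olig1 had 46 and 20 and Aqp4, a water channel also made in muscle, 233 and 86. The median of the 2 examined, Olig1 and Aqp4, was -1.01.

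**Figure D3:**
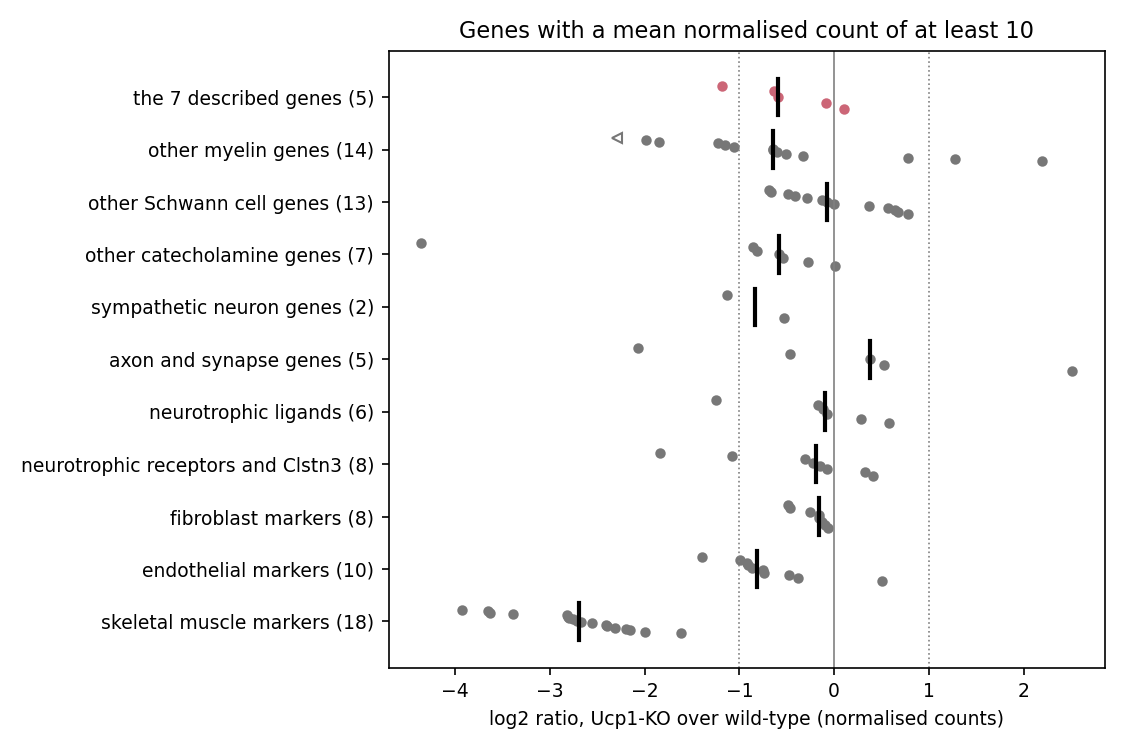
Log2 ratios of Ucp1-KO over wild-type for each gene that reached a mean of 10 normalised counts, by list (number of genes in parentheses); black bars are medians, dotted lines mark a 2-fold difference and the open triangle is Ugt8a at its bound. The other myelin genes spread from -2.29 to 2.19, the other Schwann cell genes stay within 2-fold of 0, and all 18 skeletal muscle markers lie beyond 2-fold below it.

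Genes around noradrenaline were counted to unequal depth, and the cells that their counts came from were not tested. Of 9 further catecholamine genes 7 were examined, with a median log2 ratio of -0.58. None was 2-fold higher, beside 7.42% of all genes examined, and 1 was at least 2-fold lower, beside 9.55%. That was Ddc, the decarboxylase that makes dopamine, with 36 counts in wild-type against 1 in Ucp1-KO, a log2 ratio of -4.36 and a counting interval of -14.92 to -1.48. The single count lies under the limit of 6, so the size of the ratio is poorly set. Ddc passed the minimum through the wild-type library alone. Slc18a2, which loads monoamines into vesicles and is also made by mast cells, had 145 and 65 counts (-0.85, -1.50 to -0.24). Maob, a monoamine oxidase that degrades these amines in many cell types, had 4072 and 2268 counts (-0.54, -0.65 to -0.44). Slc6a2, the noradrenaline transporter of sympathetic endings, was listed at 0 in both libraries, and Pnmt, the adrenaline enzyme of the adrenal medulla, had 2 and 0 counts.

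Genes that define sympathetic neurons were mostly unmeasured. Of 11 listed, 7 were at 0 in both libraries (among them Hand2, Insm1, Isl1, Ecel1, Chga and Npy), and 2 passed the minimum. Phox2a, a transcription factor of noradrenergic neurons, had 52 and 19 counts, with a log2 ratio of -1.13 (-2.40 to -0.03), and Gata3 had 18 and 10 counts, which did not differ beyond counting error. The defining markers of the neuron type itself were thus at or near 0 in both libraries. Of 16 axon and synapse genes 5 were examined, and they pointed both ways. Stmn2, a microtubule regulator of growing axons, had 187 counts in wild-type against 36 in Ucp1-KO (-2.06, -2.89 to -1.34). Uchl1, a neuronal ubiquitin hydrolase, had 22 and 104 (2.51, 1.58 to 3.63). Syn1, a synaptic vesicle protein, had 59 and 69, a log2 ratio of 0.52 (-0.23 to 1.29). The median of the 5 was 0.37, and it was -0.47 without the minimum on low counts.

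The factors that feed nerve and their receptors were well counted in part. Of 10 neurotrophic ligands 6 were examined, with a median log2 ratio of -0.09. None was 2-fold higher, beside 7.42% of all genes examined, and 1 was at least 2-fold lower, beside 9.55%. Ntf3, the ligand of TrkC, had 246 counts in wild-type against 84 in Ucp1-KO, giving a log2 ratio of -1.25 (-1.79 to -0.73). Nrtn, a ligand of the GDNF family, had 55 and 67 counts (0.58, -0.19 to 1.37). Nrg4, a neuregulin that brown adipocytes secrete, had 4665 and 3369 counts, with a small log2 ratio of -0.17 (-0.26 to -0.08). Nrg1, the neuregulin of axons, was listed at 0 in both. Of 9 genes for receptors and Clstn3, 8 were examined, with a median of -0.19. By the same shares of all genes, none was 2-fold higher (7.42%) and 2 were at least 2-fold lower (9.55%). Ntrk2, which encodes TrkB, had 11268 counts in wild-type against 2569 in Ucp1-KO (-1.83, -1.92 to -1.75), and Ret, the receptor of the GDNF family, 195 and 75 (-1.07, -1.66 to -0.52). Ntrk3, which encodes TrkC, was slightly higher with 11411 and 11637 counts (0.33, 0.28 to 0.38), as was Sort1, a co-receptor of Ngfr for immature neurotrophins, with 7174 and 7735 (0.41, 0.34 to 0.47). Both differences are near the size of the shift that total-count scaling brings. Clstn3, whose brown fat form promotes S100b secretion, had 11340 and 8295 counts, with a log2 ratio of -0.15 (-0.21 to -0.09). It was thus nearer to equality than S100b itself, whose interval ended at -0.55.

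Other cell types moved beside the members, and their part in the results was not tested. All 18 skeletal muscle markers were at least 2-fold lower, beside 9.55% of all genes examined. They had a median log2 ratio of -2.69 and a summed count of 351999 in wild-type against 42936 in Ucp1-KO. Among them Acta1 had 76457 and 5916 counts and Myh4 57748 and 6751. Endothelial markers summed to 127693 and 63828 counts and had a median of -0.81. Of these, 9 of 10 were lower beyond counting error, beside 30.5% of all genes examined, Kdr from 33059 to 14683 among them. Fibroblast markers summed to 94520 and 71005 with a median of -0.16, and Col3a1 had 49493 and 38387 counts. The Pmp22 and S100b ratios of -0.59 and -0.64 lay between the endothelial and the fibroblast median. Macrophage markers summed to 7145 and 7333 with a median of 0.12 (-0.19 with total counts), and Lyz2 had 1979 and 2824 counts. Lymphocyte markers, of which 7 of 8 were examined, summed to 471 and 570 with a median of 0.09 (-0.21 with total counts), and Ptprc, at 311 and 450, held most of them. Brown adipocyte markers, which check the tissue label, were abundant in both libraries at 968449 and 671473 counts with a median of 0.56 (-0.23 as a ratio of sums). Of these 11 markers 9 were higher beyond counting error, beside 31.5% of all genes examined, and 4 of them at least 2-fold, beside 7.42%. Among the 4, Elovl3, a fatty acid elongase, had 1721 and 8037 counts (2.52, 2.42 to 2.63). Fabp4, a fatty acid carrier, had 387360 and 350385 (0.15, 0.15 to 0.16), and total-count scaling turns a ratio of this size below 0.

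**Figure D4:**
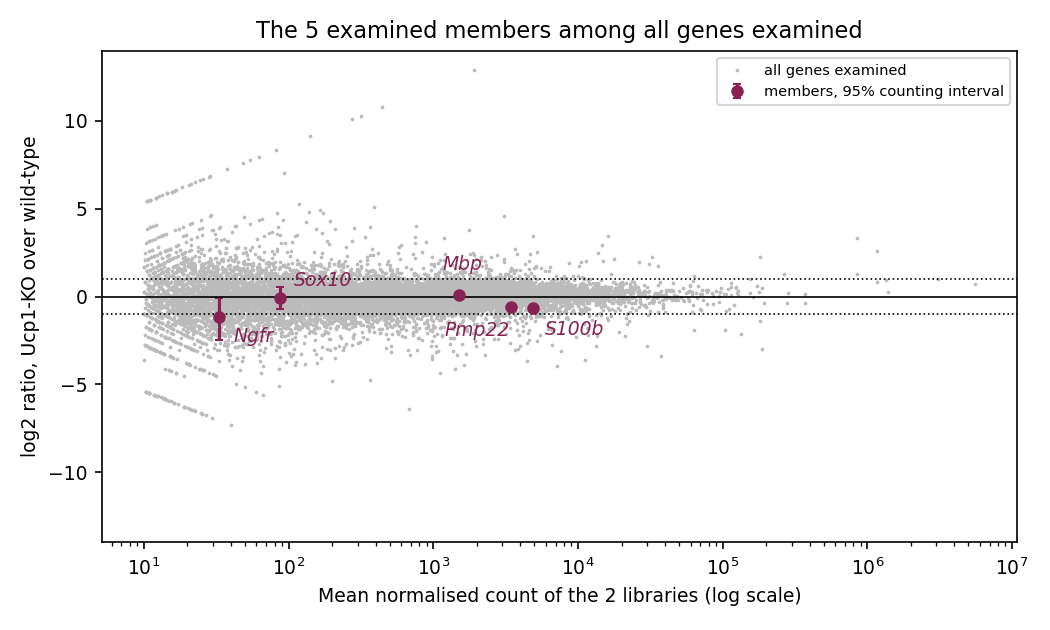
Log2 ratio of Ucp1-KO over wild-type against mean normalised count (log scale) for the 15212 genes examined (grey) and the 5 examined members (purple, with 95% counting intervals); dotted lines mark a 2-fold difference. Ngfr, at a mean of 33.0, has the widest interval, and Pmp22 and S100b, at means of 3458 and 4874, sit below the line of equality within the 2-fold band.

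By distance over the 2 libraries on the log2 scale of normalised counts, the gene nearest to each examined member was Golga3 for Mbp (distance 0.014), Smc1a for Pmp22 (0.028), Prkcb for Sox10 (0.015), Zbtb7b for S100b (0.038) and Nlrc3 for Ngfr (0, with the same 51 and 18 counts). With 2 libraries such closeness is common, and 94 genes lay within 0.1 of Mbp and 8 within 0.1 of S100b.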

How the data were processed

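The authors deposited 1 table of featureCounts read counts per gene for each library, unnormalised, with Entrez identifiers and symbols and no coordinates. Per the labels, libraries were strand-specific and poly(A)-enriched, and the submitters' processing notes name Trim Galore, HISAT2 and the build mm39. The annotation and the settings for strand and multi-mapping reads were not given in the sources used here, so overlapping genes and near-identical copies are uncertain. Rows without a symbol (1319) held 0.156% and 0.121% of the counts and were kept.

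Scaling used the median-of-ratios method of DESeq2 1.42.0 (R 4.3.3), with factors of 1.11 for wild-type and 0.901 for Ucp1-KO. The log2 ratio used a pseudocount of 0.5 on normalised counts, and genes were examined from a mean of 10 normalised counts upwards. A fold of 2 was the size rule. Poisson intervals, Clopper-Pearson intervals of ratios (95%) and approximate log-normal intervals of ratios between genes were computed on read pairs with scipy 1.17.1. The ratios and their Clopper-Pearson intervals were checked on simulated data. These were drawn as Poisson read pairs, the model that the intervals assume, so the check covers the calculation and not that model. All these intervals cover counting error alone, because PCR copies cannot be told from molecules here, and no test between genotypes is possible with 1 library each. Alternatives were total-count and TMM scaling (edgeR 4.0.16), a pseudocount of 5, no minimum or a minimum of 50, intervals on single counts, and sums in place of medians.

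Positions and exon lengths are from GENCODE release M39 (GRCm39), joined by symbol (167 of 168 listed genes had a length). The members and lists were chosen with earlier results of these data known. Genes named were the members, and from each list up to 3 with the largest ratio in size and up to 2 with the highest mean among genes examined. Some genes that this rule names are not reported here. Genes listed at 0 in both libraries, Mag, Pmp2, Mog and the others said to be so were named after their values were seen.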

Additional observations from a re-analysis of the deposited data

How the results depend on the processing

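No paired analysis was possible because wild-type and Ucp1-KO had 1 library apiece, and for the same reason none could be left out in turn. Of 116 values under the alternatives, 95 counted as unchanged, 20 moved and 1 reversed. Unchanged meant within its counting interval for a member, and within 1.5 times the count for a number of genes. For the median of a list it meant lying between the medians of its genes' interval ends. That window is not an error range of the median, and it is wide where counts are low (-2.44 to 0.57 for sympathetic neuron genes). Total-count scaling moved most, since it shifted the median of all genes examined from -0.0016 to -0.31. It gave -0.20 (-0.35 to -0.05) for Mbp, -0.89 for Pmp22, -0.94 for S100b and -0.89 for the median of the members, -0.89 for the catecholamine genes, -3.00 for muscle, -1.12 for endothelial, -0.46 for fibroblast, -0.19 for macrophage and 0.25 for brown adipocyte markers, with 732 genes at least 2-fold higher and 2320 lower, or 24.0% higher among those past 2-fold in place of 43.7%. These moves follow from the shift by construction. TMM scaling and a pseudocount of 5 left every member tried within its interval, and TMM scaling left every list median within that window. Intervals on single counts do not change the ratios, so their 6 values had to fall among the 95. They put the Mbp interval just above 0. Without a minimum on low counts 1 member, Th, was at least 2-fold higher and 2, Ngfr and Dbh, lower (Dbh within the limit of detection in both libraries), and 2187 genes were higher and 2844 lower. With a minimum of 50 Ngfr was not examined, so 0 members were lower and their median was -0.33, the lymphocyte median was 0.83, and 617 genes were higher and 811 lower, both by fewer genes entering. Sums in place of medians gave -0.70 for endothelial markers and reversed the brown adipocyte markers to -0.23, in which Ucp1 takes a large share of the sum. With a minimum of 50 no sympathetic neuron gene was left. Some medians changed sign without being counted above. These were axon and synapse genes (-0.02 as sums, -0.47 without a minimum), neurotrophic ligands (0.05 with a minimum of 50) and lymphocyte markers. Depth limits Sox10, Ngfr, Th and Dbh.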
